A study of Mus musculus with 6 samples.

Results

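The 28 genes described here make, sense, store and move cholesterol: 18 encode enzymes from acetyl-CoA to cholesterol, 5 belong to the SREBP control circuit and 5 serve esterification, lysosomal export, cytosolic carriage or efflux. They were listed by symbol, with earlier results of these data already known, and are 28 of the 53700 gene identifiers counted. All 28 had enough reads to be tested. Whole testes of mice at postnatal day 45 were compared, in 3 libraries of the MSL3 WT genotype and 3 of the MSL3 cKO genotype. The cKO is a conditional knockout of a floxed Msl3 allele. Each library is titled a biological replicate and is taken here as a mouse. The same strain, Msl3em1Forni/C57BL/6J, is given for both groups, and the recombinase and the cells in which it acts are not given in the sources used here. Msl3 encodes a subunit of the male-specific lethal (MSL) histone acetyltransferase complex.

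Cholesterol is built from acetyl-CoA by way of mevalonate, isoprenoids, squalene and lanosterol, and lanosterol is then trimmed and reduced in a series of late sterol steps. When membranes of the endoplasmic reticulum hold little cholesterol, SCAP escorts the SREBP transcription factors to the Golgi, where they are cleaved and released to the nucleus to raise transcription of these enzymes. INSIG proteins hold SCAP back when sterol is plentiful. In the testis, Leydig cells turn cholesterol into testosterone, and germ cells are known for high CYP51 and for late intermediates called meiosis-activating sterols.

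The 6 libraries held 56991431 to 73766444 reads assigned to genes, and the 28 genes had from 262 reads (Mvd, cKO 2) to 27532 reads (Fdft1, cKO 1) in a library. Msl3 itself was at 16.0, 18.9 and 15.9 CPM (reads scaled to the depth of the library) in WT 1, 2 and 3 and at 16.0, 14.8 and 15.8 CPM in cKO 1, 2 and 3, with overlapping groups (edgeR adjusted p 0.551). Whole-gene counts did not separate the groups for Msl3, so the deletion could not be checked, and cKO is used below as the name of a label. The sum of 8 Leydig markers was 806 to 1050 CPM, that of 9 Sertoli markers 1330 to 1710 CPM and that of 8 elongating spermatid markers 16500 to 20900 CPM, so the germ and somatic cells of a testis were present in every library. In RNA from a whole organ, fewer cells of a type and less RNA per cell cannot be told apart.

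None of the 28 genes passed an adjusted p of 0.05 in the comparison of cKO with WT, where 0.0183% of all 21902 tested genes did (edgeR quasi-likelihood test, Benjamini-Hochberg adjustment). Their adjusted p-values ran from 0.306 to 0.997, and DESeq2 also called 0 of them. At an unadjusted p under 0.05 there were 2 of 28 (7.14%), where 13.9% of all tested genes were. Npc1 was the one with the higher estimate in cKO, a direction in which 7.33% of all genes lay at that limit, and Cyp51 the one with the lower estimate, where 6.54% did. The groups did not overlap for the same 2 genes, with cKO above WT for Npc1 (10% of all genes) and below it for Cyp51 (8.85% of all genes). Neither share is above that of the transcriptome.

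The median log2 fold change of the 28 genes was -0.01, against 0.00 over all tested genes, with 13 estimates above 0 and 15 below. For all 28 the unadjusted 95% interval of the log2 fold change lay within 0.5 of 0, a 1.41-fold difference, the outermost limits being -0.49 for Msmo1 and 0.46 for Abca1. Of the 11468 tested genes with a mean CPM in the range of the 28, 92.5% had an interval that narrow, and of all tested genes 64.4%, so intervals this narrow are common at these levels. In the same range of levels 19.7% of genes had an unadjusted p under 0.05. Sqle had limits of 93.9% and 113% of the WT level, Fdft1 92.8% and 114%, and Insig2 91.4% and 111%.

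**Figure D1:**
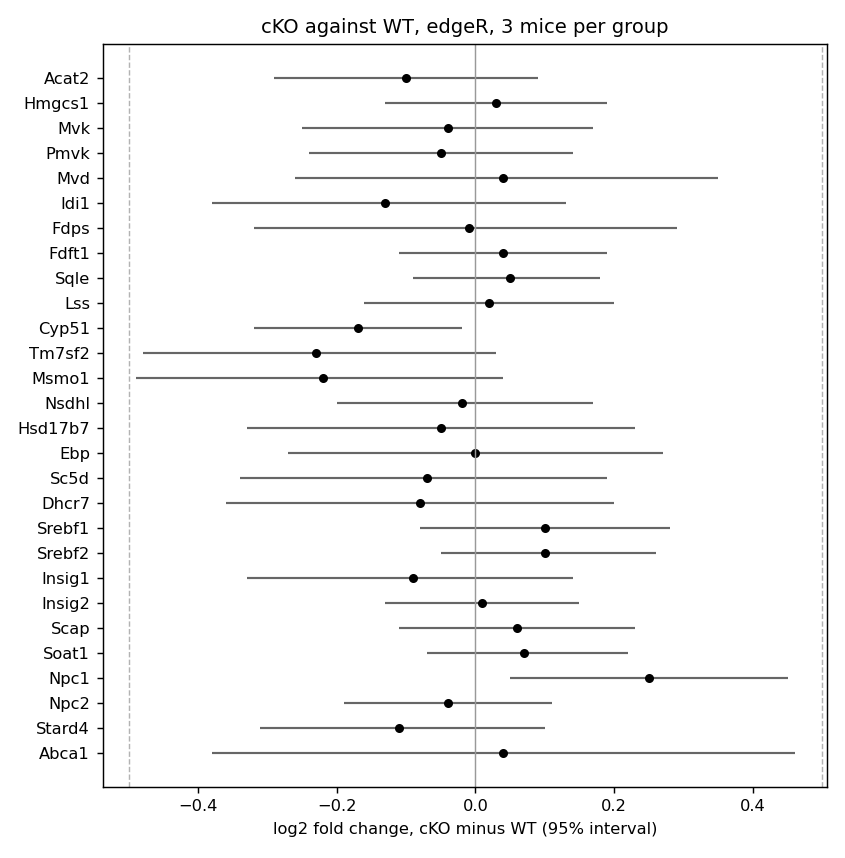
Log2 fold change (cKO minus WT, horizontal axis) of each of the 28 genes with its unadjusted 95% interval, from edgeR with 3 mice per group; dashed lines mark 0.5 on either side of 0. Intervals of Cyp51 and Npc1 leave out 0, and none reaches a dashed line.

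Levels between genes were compared per kilobase of exon (RPKM, from the same scaled counts divided by the summed exon length). The step that commits isoprenoids to sterol carried by far the highest level. Fdft1, squalene synthase, ranged from 78.5 to 89.3 RPKM over the 6 mice. It was followed by Cyp51, which removes the 14-methyl group of lanosterol, at 21.6 to 26.2 RPKM, and by Sqle, squalene epoxidase, at 22.2 to 24.1 RPKM. These ranges of Cyp51 and Sqle overlapped. Insig2 (18.6 to 19.9 RPKM) and Hmgcs1, the HMG-CoA synthase of the cytosol (16.3 to 19.0 RPKM), came next, and their ranges overlapped too. Npc2, the cholesterol carrier of the lysosome lumen, was sixth at 10.2 to 11.5 RPKM. With the length of the principal transcript in place of all exons the same 6 genes led, with Sqle ahead of Cyp51.

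The enzymes between these peaks were far lower. Fdps, which makes the farnesyl diphosphate that Fdft1 joins, was at 1.30 to 1.98 RPKM, and within a mouse the Fdft1 level was 45.1 to 61.0 times that of Fdps. Exons of Gm43738 on the same strand cover 1124 bases of Fdps exons, and reads there cannot be assigned to one gene. The Fdps level may thus be understated and the ratio overstated, to a degree that was not tested. Lss, which closes the ring to lanosterol, was at 1.72 to 2.04 RPKM, with Sqle 11.5 to 13.3 times higher in the same mouse. Past lanosterol, Cyp51 exceeded Tm7sf2, a C14 sterol reductase that turns one meiosis-activating sterol into the other, by 16.8 to 20.2 times. It exceeded Sc5d, the C5 desaturase, by 3.08 to 4.40 times and Dhcr7, which makes the last reduction of one branch, by 6.21 to 8.28 times. Each of these ratios had overlapping groups, so the uneven profile of these enzymes was shared by WT and cKO. Their size depended on the length used. By the principal transcript, Fdft1 was 16.9 to 22.9 times Fdps, Cyp51 was 6.32 to 7.58 times Tm7sf2, and Cyp51 was 3.37 to 4.5 times Dhcr7, all well under the ratios by summed exons. Sqle was then 10 to 11.5 times Lss and Cyp51 3.41 to 4.86 times Sc5d, and in every mouse the order of each pair was the same by both lengths.

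**Figure D2:**
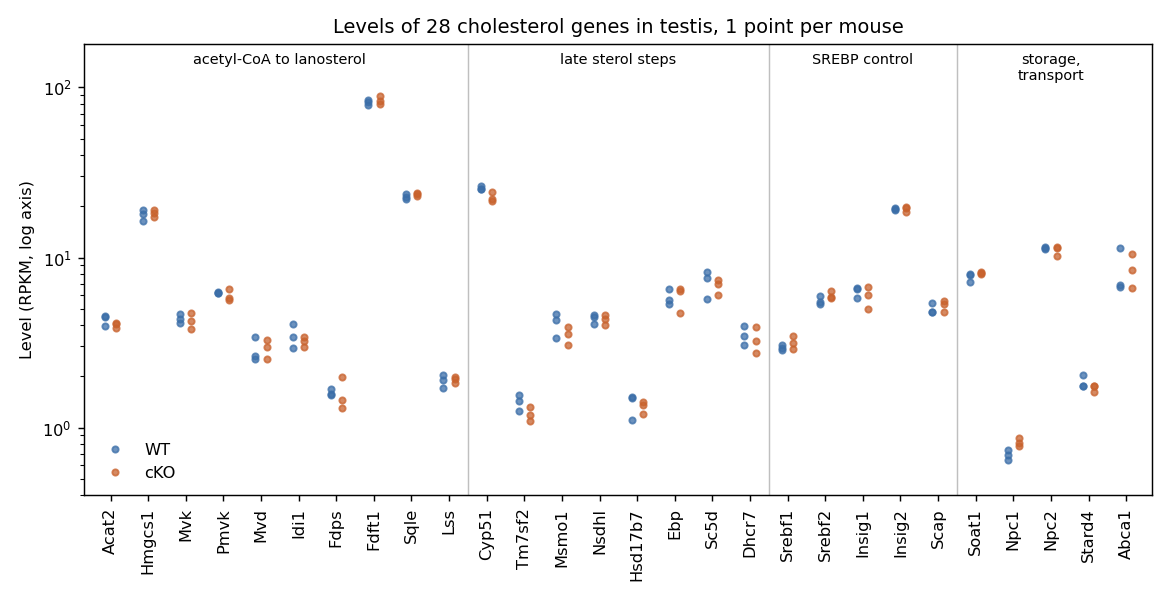
Level of each of the 28 genes in RPKM (vertical log axis), with genes in pathway order along the horizontal axis and 1 point per mouse, WT left and cKO right. Fdft1 stands above all others at 78.5 to 89.3 RPKM, and Npc1 is lowest at 0.647 to 0.868 RPKM.

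The first 10 enzymes, from acetyl-CoA to lanosterol, gave no gene at an unadjusted p under 0.05 and a median log2 fold change of 0.01. Hmgcs1 was at 87.1, 83.1 and 74.7 CPM in WT 1, 2 and 3 and at 79.7, 84.0 and 86.9 CPM in cKO 1, 2 and 3. Its log2 fold change was 0.03 (SE 0.074, adjusted p 0.882). Fdft1 was at 356, 332 and 347 CPM in WT and at 377, 352 and 336 CPM in cKO, a log2 fold change of 0.04 (SE 0.068, adjusted p 0.829). In both genes the cKO values lay within or around the WT values, with no mouse standing apart. Sqle, the first oxygenation of the pathway, was the steadiest enzyme: 130, 126 and 123 CPM in WT and 128, 133 and 130 CPM in cKO. The highest of the 6 mice exceeded the lowest by 1.08 times.

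The mevalonate kinases and the decarboxylase were low and overlapping. Mvk ranged from 10.2 to 12.6 CPM over the 6 mice and Pmvk, which adds the next phosphate, from 9.62 to 11.3 CPM. Mvd, which turns the product into isopentenyl diphosphate, ranged from 4.68 to 6.35 CPM, with WT 1 and cKO 1 the highest mice of their groups. Acat2, the cytosolic thiolase that opens the pathway, was at 11.0 ± 0.792 CPM in WT and 10.3 ± 0.370 CPM in cKO (SD, n = 3). Idi1, the isopentenyl diphosphate isomerase, was at 10.3, 14.3 and 12 CPM in WT and 10.4, 11.3 and 11.9 CPM in cKO, so WT 2 set its spread. Fdps was highest in cKO 1 (8.33 CPM) and lowest in cKO 3 (5.48 CPM), both of the same group. Lss ranged from 18.6 to 22.0 CPM.

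Some of these counts are limited by shared sequence. Of the 75-base stretches of Acat2 transcripts, 33.9% also occur in Acat3, and reads from them cannot be assigned to one gene. For Idi1 the share found in other genes was 23.6%, mostly in Gm13502, and for Fdps it was 23.5%, mostly in Gm43738, which overlaps its exons on the same strand. Tm7sf2, described below, shares 8.83% with Vps51 on the same strand. Fdft1 shares 16.6% with Ctsb, whose exons overlap it on the opposite strand, where the stranded count keeps the 2 genes apart. No other member shared over 10% of its stretches with another annotated gene.

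Over the 8 late sterol genes the median difference was -0.08 on the log2 scale. Estimates were below 0 for 7 of 8, against 49.3% of all tested genes. An unadjusted p under 0.05 in edgeR was found for 1 of 8, against 13.9% of all tested genes. Cyp51 (ENSMUSG00000001467, minus strand, chr5:4081145-4104746, mm10) was at 111, 116 and 111 CPM in WT 1, 2 and 3 and at 108, 97.0 and 95.5 CPM in cKO 1, 2 and 3. All cKO mice lay below all WT mice, with cKO 1 close to the WT range. The means were 113 ± 2.46 CPM and 100 ± 6.70 CPM (SD, n = 3), a level of 88.9% of WT with 95% limits of 80.1% and 98.6%. On the log2 scale the difference was -0.17 (SE 0.069), and edgeR gave an unadjusted p of 0.030 and an adjusted p of 0.320. Over the fits that each left out 1 mouse it ran from -0.23 to -0.14, and its adjusted p was lowest, at 0.098, without cKO 1. Beside Cyp51, 8 round spermatid markers had a median log2 difference of -0.17. A lower estimate with an unadjusted p under 0.05 in edgeR was found for 4 of 8, against 6.54% of all tested genes. Their summed level was 1670 to 1720 CPM in WT and 1480 to 1620 CPM in cKO, and its part in the Cyp51 values was not tested. The median was -0.14 for 8 elongating spermatid markers and -0.02 for 9 pachytene and diplotene spermatocyte markers.

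Msmo1, the oxidase that starts removal of the methyl groups at C4, was at 26.3, 28.7 and 20.7 CPM in WT and at 21.8, 18.8 and 24.1 CPM in cKO (adjusted p 0.426). Tm7sf2 was at 6.29, 6.84 and 5.49 CPM in WT and at 5.84, 4.79 and 5.24 CPM in cKO (adjusted p 0.404). For both the groups overlapped, with WT 3 inside the cKO range. The log2 fold changes were -0.22 (SE 0.120) for Msmo1 and -0.23 (SE 0.118) for Tm7sf2, and single mice moved both. Msmo1 was at -0.12 without WT 2 and -0.14 without cKO 2, but at -0.36 without WT 3. Tm7sf2 was at -0.15 without WT 2 and -0.16 without cKO 2, but at -0.32 without WT 3. Unadjusted p-values in edgeR were 0.349 and 0.254 without WT 2, and 0.00878 and 0.034 without WT 3, where both adjusted p-values were 0.730. The remaining late enzymes were nearer to 0. Hsd17b7, the C3 ketoreductase, ranged from 5.66 to 7.77 CPM with a log2 fold change of -0.05. Sc5d was at 39.8, 36.7 and 27.8 CPM in WT and 36.0, 29.2 and 33.9 CPM in cKO. Dhcr7 was at 23.0, 20.1 and 17.7 CPM in WT and 22.9, 15.9 and 18.7 CPM in cKO. The log2 fold changes of Sc5d and Dhcr7 were -0.07 and -0.08, less than the spread between mice of either group.

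Nsdhl and Ebp are the X-linked enzymes among the 28. Nsdhl, the C4 decarboxylating dehydrogenase (chrX:72918557-72958514, mm10), was at 13.0, 12.7 and 11.7 CPM in WT and 13.0, 11.5 and 12.5 CPM in cKO. Its level in cKO was 98.9% of WT, with 95% limits of 86.8% and 113%. Ebp, which shifts the sterol double bond (chrX:8185329-8193512, mm10), was at 15.2, 13.1 and 12.3 CPM in WT and 15, 10.9 and 14.6 CPM in cKO. Its level was 100% of WT, with limits of 83.1% and 121%. Neither interval left out an equal level, and differences inside these limits could not be detected with 3 mice per group.

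The larger differences in the late steps lay between mice of the same label. For each gene, the log2 CPM of each mouse was set against the mean of the 6 mice, and the median over the 8 late sterol genes was taken. It was 0.18, 0.12 and -0.13 in WT 1, 2 and 3 and 0.08, -0.23 and 0.01 in cKO 1, 2 and 3. In WT 1 all 8 genes were above their own means, in cKO 2 all 8 were below, and in WT 3 all but 1 were below. The 10 earlier enzymes spread less, with medians from -0.07 to 0.09. Of the 28 genes, 11 had their lowest value in cKO 2 and 7 in WT 3, whereas 9 had their highest in WT 1 and 9 in cKO 1. Over all tested genes with reads in every library the same medians lay between -0.01 and 0.01. Library scaling itself holds such medians near 0, so they are no yardstick for the late sterol genes. How often genes in general were highest or lowest in each mouse was not counted. These medians and counts are a description of 6 mice, with no test.

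**Figure D3:**
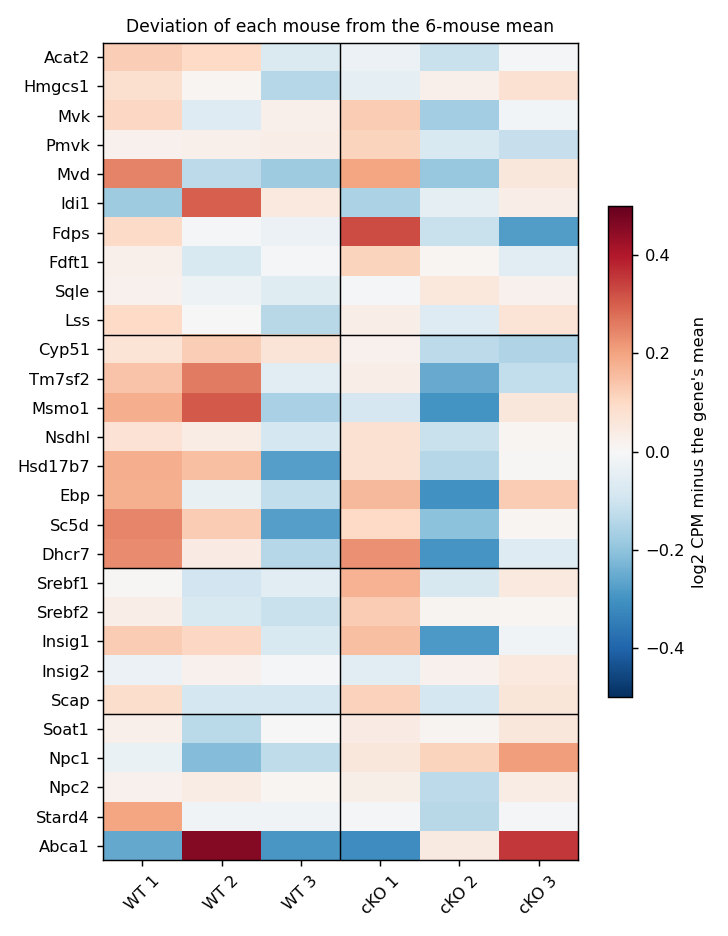
Log2 CPM of each gene minus its mean over the 6 mice (colour scale), with genes in pathway order down the vertical axis and mice along the horizontal axis. The late sterol block, Cyp51 to Dhcr7, is below its means in cKO 2 and, except for Cyp51, in WT 3, and above them in WT 1.

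Leydig cells make the steroids of the testis, and 8 of their markers are given beside these medians. Their summed level was 1050, 959 and 883 CPM in WT 1, 2 and 3 and 1040, 806 and 899 CPM in cKO 1, 2 and 3, lowest in cKO 2 and, within WT, lowest in WT 3. That order rested in part on Cyp17a1, a steroid-making P450 and the most abundant marker. Without it, a sum chosen after the values were seen, the other 7 markers gave 561, 572 and 539 CPM in WT and 559, 462 and 519 CPM in cKO, lowest again in cKO 2, with WT 3 above cKO 3 and WT 2 highest. Star, which moves cholesterol into mitochondria, had another order, at 69.0, 38.7 and 75.1 CPM in WT and 81.7, 80.3 and 63.3 CPM in cKO. No Leydig marker was at 0. At an unadjusted p under 0.05 in edgeR, 2 of the 8 had a lower estimate in cKO (6.54% of all tested genes). A higher estimate at that limit was found for 0 of the 8 (7.33% of all tested genes). A lowest sum in cKO 2 was not particular to Leydig markers. It also held for pachytene and diplotene spermatocyte (8590 CPM), round spermatid (1480 CPM) and elongating spermatid markers (16500 CPM). Peritubular myoid (374 CPM) and adipocyte markers shared it, while Sertoli, macrophage, endothelial, spermatogonia, epididymis and erythroid markers did not. Within WT, none of the sums that shared it was lowest in WT 3. The part of Leydig or other RNA in the late sterol levels was not tested.

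**Figure D4:**
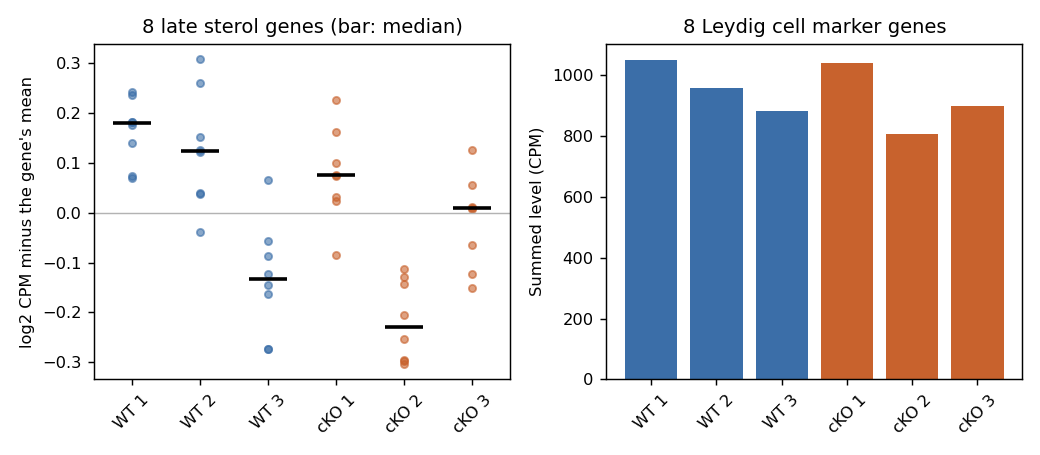
Left, log2 CPM minus the gene's mean for the 8 late sterol genes (points) with their median (bar) in each mouse. Right, summed CPM of 8 Leydig markers in each mouse. Both panels are lowest in cKO 2, as were marker sums of several other cell types, not shown. The Leydig sum is highest in WT 1 only with Cyp17a1 included.

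Upstream sequences are shown for Cyp51 and Sc5d as late enzymes that were low in cKO 2, and for Hmgcs1 as an early enzyme that was not. RefSeq windows of 250 bases before the start of transcription (GRCm38.p6) were searched on both strands for 4 short motifs chosen with these promoters in view. They were CCAAT, the core bound by NF-Y; the GC box of SP1, spelled GGGCGG; a loose form of the sterol regulatory element, spelled TCACNNCA; and the core of the cAMP response element, spelled TGACG. Sequences are given 5′ to 3′ on the strand of the gene and stop where the GENCODE M21 exon begins, which leaves 49 bases of the Cyp51 window unprinted. Capitals mark every motif match, and matches may overlap.
Cyp51 (chr5:4104747-4104947, minus strand): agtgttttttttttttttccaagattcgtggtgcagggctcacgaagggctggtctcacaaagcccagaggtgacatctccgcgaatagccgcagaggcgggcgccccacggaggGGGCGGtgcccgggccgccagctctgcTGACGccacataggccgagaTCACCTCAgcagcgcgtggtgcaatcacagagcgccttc
Sc5d (chr9:42264301-42264550, minus strand): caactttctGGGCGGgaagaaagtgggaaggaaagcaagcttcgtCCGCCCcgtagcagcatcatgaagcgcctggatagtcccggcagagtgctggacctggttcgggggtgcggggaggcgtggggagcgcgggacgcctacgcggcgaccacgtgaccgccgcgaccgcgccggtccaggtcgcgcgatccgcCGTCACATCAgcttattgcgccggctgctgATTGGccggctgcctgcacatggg
Hmgcs1 (chr13:119690101-119690350, plus strand): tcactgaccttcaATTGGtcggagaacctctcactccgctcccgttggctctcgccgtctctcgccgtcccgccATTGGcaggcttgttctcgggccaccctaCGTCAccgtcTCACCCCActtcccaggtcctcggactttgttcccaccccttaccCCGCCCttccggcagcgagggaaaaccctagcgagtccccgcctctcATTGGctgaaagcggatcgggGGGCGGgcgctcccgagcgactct
The full windows of all 3 genes hold each of the 4 motifs at least once, and the NF-Y core of Cyp51 lies in the bases not printed. RefSeq windows were matched for 23 of the 28 genes, in 31 windows. The NF-Y core occurred in 67.7% of these windows against 33.8% of all 32851 windows, and the GC box in 77.4% against 32.7%. The sterol element form occurred in 32.3% against 11.4%, and the cAMP element core in 25.8% against 17.8%. The genes shown are not typical in this respect: 5 of the 23 genes held all 4 motifs in a window, a share not computed over all genes. Of the 8 late sterol genes, 8 held the NF-Y core in any window (37.5% of all 27025 genes) and 8 the GC box (35.4%). The sterol element form was held by 5 (13%) and the cAMP element core by 4 (19.8%). As the motifs were chosen with these promoters in view, and the other windows were not matched for base composition, the higher shares are no test. A match describes the letters in the window and not a bound site.

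The 5 genes of the SREBP circuit held no gene at an unadjusted p under 0.05. Srebf2, which encodes the factor that mainly drives cholesterol enzymes, was at 42.5, 39.4 and 38.4 CPM in WT and at 45.4, 41.9 and 41.8 CPM in cKO. Its log2 fold change was 0.10 (SE 0.071, adjusted p 0.542), and cKO 2 and cKO 3 lay between the WT values. Srebf1, whose products act more on fatty acid genes, was at 17.3, 16.1 and 16.6 CPM in WT and at 19.4, 16.2 and 17.8 CPM in cKO, also 0.10 on the log2 scale (SE 0.084). Per kilobase, Srebf2 was 1.82 to 2.02 times as high as Srebf1 in each mouse. Scap, the escort that senses sterol, ranged from 35.7 to 41.2 CPM, with WT 1 and cKO 1 the highest of their groups.

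The INSIG genes spread unequally between mice. Insig1, itself a target of SREBP, was at 20.5, 20.2 and 17.8 CPM in WT and at 20.8, 15.4 and 18.6 CPM in cKO (adjusted p 0.744). It was lowest in cKO 2, as were 5 of the 8 late sterol genes, the others being lowest in WT 3 (Hsd17b7 and Sc5d) or cKO 3 (Cyp51). Insig2 was at 65.8, 68.1 and 66.7 CPM in WT and at 64.5, 68.0 and 69.3 CPM in cKO (adjusted p 0.964), and its highest mouse exceeded its lowest by 1.07 times. Per kilobase, the Insig2 level was 2.76 to 3.94 times that of Insig1, with the largest ratio in cKO 2.

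Among genes of storage and transport, Npc1 gave the largest estimate of the 28. Npc1, which exports cholesterol from late endosomes and lysosomes (ENSMUSG00000024413, chr18:12189692-12236400, minus strand, mm10), was at 8.32, 7.32 and 7.79 CPM in WT 1, 2 and 3 and at 8.85, 9.19 and 9.83 CPM in cKO 1, 2 and 3. All cKO mice lay above all WT mice, and the gap between WT 1 and cKO 1 was smaller than the range within either group. The means were 7.81 ± 0.5 CPM and 9.29 ± 0.495 CPM (SD, n = 3). On the log2 scale the difference was 0.25 (SE 0.092, 95% limits 0.05 and 0.45), and edgeR gave an unadjusted p of 0.019 and an adjusted p of 0.306. Leaving out 1 mouse at a time gave 0.20 to 0.30, and no such fit called it. Its partner Npc2 was at 61.7, 62.4 and 61.2 CPM in WT and 62.0, 55.4 and 62.3 CPM in cKO (adjusted p 0.826). Per kilobase, Npc2 was 15.4, 17.7 and 16.3 times as high as Npc1 in WT and 14.6, 12.6 and 13.2 times in cKO.

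Soat1, which esterifies cholesterol for storage, was at 78.6, 70.5 and 77.3 CPM in WT and 79.5, 78.0 and 80.5 CPM in cKO, a log2 fold change of 0.07 (SE 0.067). WT 2 was the lowest mouse, and WT 1 lay inside the cKO range. Stard4, a cytosolic sterol carrier, ranged from 8.99 to 11.3 CPM with a log2 fold change of -0.11 (adjusted p 0.635). Abca1, which passes cellular cholesterol to apolipoproteins, was the most variable of the 28. It was at 71.2, 117 and 69.6 CPM in WT 1, 2 and 3 and at 68.8, 87.9 and 109 CPM in cKO 1, 2 and 3, so 1 mouse in each group was over 100 CPM. Its coefficient of variation over the 6 mice was 24.4%, that of the next gene, Msmo1, being 15.7%. The log2 fold change of Abca1 was 0.04 (SE 0.192), and the sign turned without WT 1 (-0.07), without WT 3 (-0.10) or without cKO 3 (-0.13). Without WT 2 it was 0.33, with an unadjusted p of 0.048 and an adjusted p of 0.672.

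A further list of 63 genes of sterol synthesis, SREBP processing, lipoprotein receptors, oxysterols and SREBP-driven fatty acid synthesis was set beside the 28. Of these, 62 were matched and 59 tested; Soat2, Ch25h and Idi2 had too few reads. None passed the adjusted threshold, and 6 of 59 (10.2%) had an unadjusted p under 0.05, against 13.9% of all tested genes. Of these, 5 had a higher estimate in cKO (7.33% of all genes) and 1 a lower one (6.54% of all genes). The 5 were Fasn, Lrp8, Lrp1, Acaca and Scd2, and the 1 was Pgrmc1. Over the 59 genes the median log2 fold change was 0.04.

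Fasn, the fatty acid synthase, was at 134, 112 and 121 CPM in WT and at 138, 162 and 160 CPM in cKO, without overlap. Its log2 fold change was 0.32 (SE 0.085), with an unadjusted p of 0.00254 and an edgeR adjusted p of 0.276. Leaving out 1 mouse at a time gave 0.26 to 0.39. It was called by DESeq2 (adjusted p 0.039) and by edgeR without cKO 1 (adjusted p 0.023) or without the filter on low counts (adjusted p 0.00945). In the same order, these settings called 209, 628 and 757 genes in all, against 4 in the fit reported. Acaca, which supplies the malonyl-CoA for fatty acid synthase, was at 39.2, 39.0 and 41.8 CPM in WT and 41.8, 50.3 and 47.1 CPM in cKO (adjusted p 0.307). Scd2, a stearoyl-CoA desaturase, had overlapping groups and a log2 fold change of 0.20. In these genes cKO 1 was closer to WT than cKO 2 or cKO 3, except for Scd2.

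Lrp8, a lipoprotein receptor of testis and brain, was at 76.0, 75.9 and 72.4 CPM in WT and at 78.7, 94.0 and 93.0 CPM in cKO (adjusted p 0.288). Lrp1, a large receptor for lipoprotein remnants, was at 50.4, 67.5 and 53.2 CPM in WT and at 53.4, 98.8 and 97.4 CPM in cKO. Its log2 fold change was 0.54 (SE 0.191, adjusted p 0.305). Leaving out 1 mouse at a time gave 0.20 to 0.32 for Lrp8 and 0.40 to 0.78 for Lrp1, the lower end in each being without cKO 2. Without cKO 1 both were called by edgeR, Lrp8 at 0.32 (adjusted p 0.027) and Lrp1 at 0.78 (adjusted p 0.00446). Lrp1 was also called without the filter on low counts (adjusted p 9.24e-08). Those settings called 628 and 757 genes in all, against 4 in the fit reported. The high pair, cKO 2 and cKO 3, was also high in the summed level of 6 endothelial markers, 51.6 and 51.2 CPM against 41.0 to 42.6 CPM in the other 4 mice. The most abundant marker, Vwf, was at 28.6 and 26.1 CPM in that pair against 20.9 to 22.1 CPM in the others. Cdh5 and Kdr were also higher in both mice of the pair than in the others, while Pecam1, Tek and Emcn were not. The pattern was not particular to endothelial markers. In cKO 2 and cKO 3 the myoid marker Myh11 was at 54.6 and 48.7 CPM, against at most 38.2 CPM in the others. The macrophage marker Mrc1 was at 58.6 and 60.5 CPM against at most 51.9 CPM. The spermatocyte marker Sycp1 was at 287 and 280 CPM against at most 255 CPM. The summed levels of those cell types did not share the pattern. The part of endothelial or other RNA in the receptor levels was not tested.

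On the lower side, Pgrmc1, a haem-binding partner of CYP51 and other P450 enzymes, was at 144, 166 and 145 CPM in WT and at 133, 117 and 143 CPM in cKO. The groups did not overlap, though WT 1 and cKO 3 nearly met, and the log2 fold change was -0.21 (SE 0.087, adjusted p 0.322). It was -0.14 without WT 2 or without cKO 2. Acat1, the mitochondrial thiolase, and Stard6, a sterol carrier of male germ cells, had log2 fold changes of -0.11 and -0.10 and adjusted p-values of 0.497 and 0.499.

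**Figure D5:**
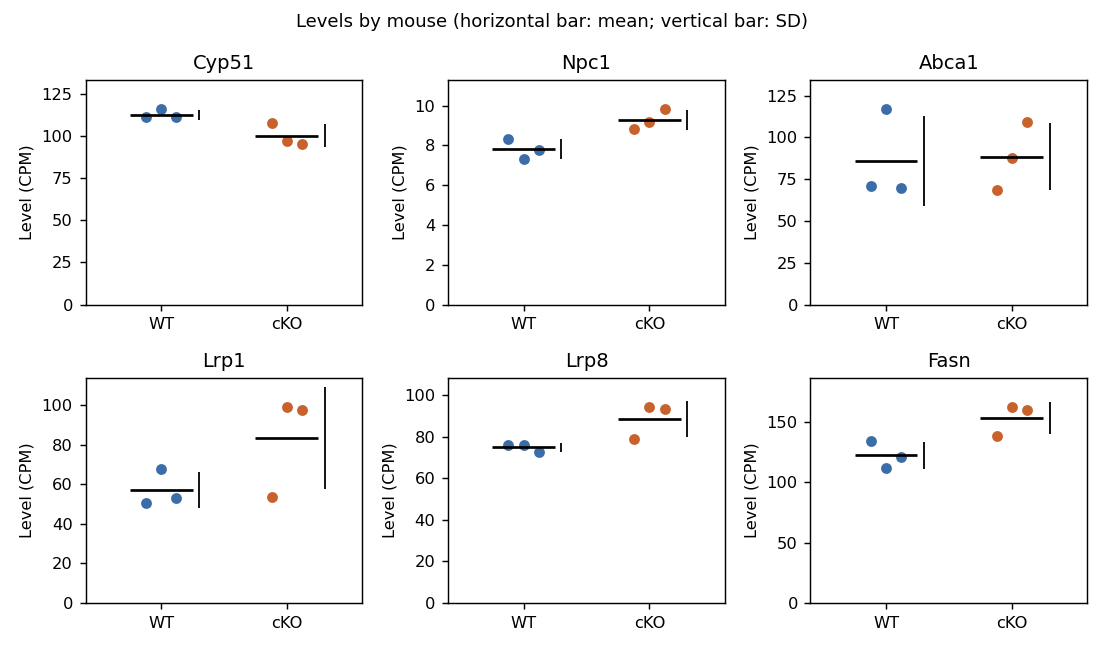
CPM of Cyp51, Npc1, Abca1, Lrp1, Lrp8 and Fasn in each mouse (points), with the group mean (horizontal bar) and SD (vertical bar) on axes that start at 0. For Cyp51 and Npc1 the groups do not overlap, while 1 WT and 1 cKO mouse exceed 100 CPM for Abca1.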

How the data were processed

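Total RNA from 6 testis samples was sequenced with single-end reads of 75 bases, per the labels' protocols. The authors deposited raw counts of reads per gene, 1 table per library, without normalisation. STAR, HTSeq and DESeq2 and the build mm10 are named in the submitters' processing notes, while versions and the annotation are not given in the sources used here. Counts on the strand opposite the gene, 96.0% to 96.2% of stranded counts, were used. Lines naming no gene (14.8% to 16.7% of reads) were left out.

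Symbols, lengths and coordinates came from GENCODE M21, which matched 52147 of 53700 identifiers. Counts were tested with edgeR 4.0.16 in R 4.3.3 (quasi-likelihood F test without covariates, TMM library scaling, low genes removed by filterByExpr at a minimum of 10 reads, Benjamini-Hochberg adjustment over 21902 genes, threshold 0.05). CPM use TMM-scaled library sizes. Alternatives were RLE scaling, library totals, other filters, unstranded counts, a replicate block, robust fitting, DESeq2 1.42.0, a threshold of 0.1 and each library left out. The procedure was tested on simulated data.

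Members and lists were chosen with earlier results of these data known. All 28 members are named, and of the further list the 3 lowest p-values in each direction, and the other genes at an unadjusted p under 0.05, named after their values were seen. The sample titles call the replicates biological, and taking each library as a separate mouse is an assumption. Motif windows came from RefSeq.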

Additional observations from a re-analysis of the deposited data

How the results depend on the processing

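No cholesterol gene was called under any of the 14 alternative fits or, in the fit reported, at an adjusted p of 0.1. The count of all called genes, 4, became 757 without a filter on low counts, 209 with DESeq2, 2 with unstranded counts and 49 with a replicate block, and 1 to 628 without 1 library at a time, being 628 without cKO replicate 1, 116 without WT replicate 1, 7 without cKO replicate 3, 2 without WT replicate 2 and 1 without WT replicate 3 or cKO replicate 2; the cause was not tested. Same-numbered libraries deviated together with correlations of 0.346, 0.261 and -0.0457, and WT replicate 3 correlated best with cKO replicate 2, so the numbers were not taken as pairs; the block called 0 cholesterol genes. Without 1 library at a time, the cholesterol genes at an unadjusted p under 0.05 numbered 1 to 3, being 1 without WT replicate 2, cKO replicate 2 or cKO replicate 3. The further list gave 3 to 6, being 3 without WT replicate 2 or cKO replicate 3. The median log2 fold change of the 28 genes ran from -0.072 to 0.032.

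Of 392 gene values under the alternatives, 349 kept the direction of the estimate and 43 turned, in 16 of the 28 genes. Apart from left-out libraries, the turned values were 0.00 to the 2nd decimal or near it: Ebp at -0.02 with library totals, -0.01 without a filter, with at least 10 reads in every library or with the block, and -0.00 with RLE or DESeq2; Insig2 at -0.02 with library totals and -0.00 without a filter; Lss at -0.00 with library totals. Without 1 library at a time, the ranges of genes that turned were -0.04 to 0.08 for Hmgcs1, -0.12 to 0.04 for Mvk, -0.05 to 0.19 for Mvd, -0.23 to 0.00 for Idi1, -0.21 to 0.11 for Fdps, -0.01 to 0.08 for Fdft1, -0.05 to 0.08 for Lss, -0.07 to 0.03 for Nsdhl, -0.19 to 0.03 for Hsd17b7, -0.08 to 0.13 for Ebp, -0.22 to 0.04 for Sc5d, -0.23 to 0.04 for Dhcr7, -0.20 to 0.02 for Insig1, -0.01 to 0.04 for Insig2, -0.07 to 0.01 for Npc2 and -0.13 to 0.33 for Abca1.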
